A study of Mus musculus and Rattus norvegicus with 53 samples.

Results

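Mest and 9 other imprinted genes with known roles in growth, 10 of the 24016 genes listed in the count files, were followed in sorted Schwann cells (SCs) of intact and cut sciatic nerve. The other 9 are Igf2, H19, Dlk1, Meg3, Peg3, Plagl1, Cdkn1c, Grb10 and Ndn. The genes were chosen on the level of Mest, which had been seen to be higher in the pooled bridge libraries than in the other pooled libraries. Values of the pooled bridge against either other pooled region are therefore given as descriptions with no p-value, and counts of genes called there are printed beside their background with nothing read from them. Tests are given for the pooled distal stump against intact nerve and for the single-nerve time course, contrasts other than those of the pooled bridge. Earlier results of these data were known when the members were chosen, so these tests are not an independent check. The pooled distal and intact libraries are those that the pooled bridge was set against in the choice.

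SCs were sorted by fluorescence from mice in which a Cre transgene active in the neural crest and in SCs switches on a tdTomato reporter at the Rosa26 locus, and all groups carried both alleles. In the labels the genotype is tdTomato+ and the cell type is Schwann cells. Mice of both sexes, 6 to 8 weeks old, had 1 sciatic nerve fully cut, and the uncut nerve of the other side was the intact sample. After the cut, the distal stump is the nerve beyond the wound and the bridge is the new tissue that joins the stumps. The first experiment held 4 libraries each of intact SCs (iSCs), distal stump SCs (dSCs) and bridge SCs (bSCs) 6 days after transection, each made from a pool of 3 mice. The second experiment held 35 libraries of single nerves: 5 of iSCs, 3 per day of dSCs on day 1, day 2, day 4, day 6, day 8 and day 10, and 3 per day of bSCs from day 4 on. Any other cell that descends from a Cre-expressing cell would also be tdTomato+.

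An imprinted gene is read from only the maternal or only the paternal chromosome, according to methylation marks set in the germ line. Several imprinted genes act on growth in fetal life: among the paternally expressed ones Igf2 encodes a growth factor and Dlk1 a membrane ligand related to Notch ligands, and among the maternally expressed ones H19 is a long noncoding RNA, Cdkn1c encodes a cyclin-dependent kinase inhibitor and Grb10 an adaptor that binds the insulin and IGF1 receptors. Many are quietened after birth. The counts here are summed over both parental alleles, so they hold no information on imprinting itself.

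Mest, the gene on which the members were chosen, is transcribed from alternative first exons. The 300 bases around 2 of its start sites are printed beside 2 of Grb10, the other member that stood higher in bSCs than in dSCs in every pooled library, because both genes have start sites that differ in their content of CG dinucleotides, the bases at which methylation marks sit. The sequences are from RefSeq on GRCm38.p6, on the strand of the gene, from 250 bases before to 50 bases after the start, with each CG in capitals.
Mest start 1, chr6:30733256-30733555, plus strand: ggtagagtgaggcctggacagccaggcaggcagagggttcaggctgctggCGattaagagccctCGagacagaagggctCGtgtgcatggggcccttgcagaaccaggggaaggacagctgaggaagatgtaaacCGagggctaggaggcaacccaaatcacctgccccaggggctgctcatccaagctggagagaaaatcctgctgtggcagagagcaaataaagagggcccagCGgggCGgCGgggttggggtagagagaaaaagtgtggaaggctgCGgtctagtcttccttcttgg
Mest start 2, chr6:30737800-30738099, plus strand: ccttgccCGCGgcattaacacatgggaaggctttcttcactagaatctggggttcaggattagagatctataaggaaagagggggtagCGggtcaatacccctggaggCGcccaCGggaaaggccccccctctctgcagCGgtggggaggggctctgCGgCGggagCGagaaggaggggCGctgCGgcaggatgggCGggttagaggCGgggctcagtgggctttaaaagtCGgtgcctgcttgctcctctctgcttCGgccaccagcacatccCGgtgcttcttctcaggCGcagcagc
Grb10 start 1, chr11:12027922-12028221, minus strand: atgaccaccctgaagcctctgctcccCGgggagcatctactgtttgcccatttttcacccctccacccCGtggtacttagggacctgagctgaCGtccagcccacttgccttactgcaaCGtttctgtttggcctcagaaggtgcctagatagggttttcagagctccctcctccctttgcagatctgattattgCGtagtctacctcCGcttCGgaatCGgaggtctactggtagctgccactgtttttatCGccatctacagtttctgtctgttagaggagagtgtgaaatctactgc
Grb10 start 2, chr11:12037371-12037670, minus strand: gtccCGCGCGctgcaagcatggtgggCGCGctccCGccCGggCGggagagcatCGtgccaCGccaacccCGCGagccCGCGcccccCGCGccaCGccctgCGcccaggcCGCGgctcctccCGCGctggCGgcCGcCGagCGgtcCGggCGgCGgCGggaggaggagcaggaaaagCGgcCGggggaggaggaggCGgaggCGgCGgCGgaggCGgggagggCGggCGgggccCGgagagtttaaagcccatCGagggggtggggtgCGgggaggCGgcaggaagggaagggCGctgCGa

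The first Mest window held 8 CG and the second 17 CG, against a median of 7 CG over all 32851 promoters of the table. The first Grb10 window held 9 CG and the second 45 CG, more than 98.1% of those promoters. A CG, which reads the same on both strands, was present in 94.6% of all promoters, and 26.5% of them held 20 or more. The table had 15 promoters for 8 of the 10 members, of which 3 held 20 or more. H19 and Cdkn1c had no entry. The counts were summed per gene, so they do not tell which start was used.

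A microRNA precursor lies inside 4 of the members. Mir335 lies inside Mest and Mir483 inside Igf2 without touching an exon, while Mir675 lies in an exon of H19 and Mir770 in an exon of Meg3. The mature arms of those in Mest and H19 (RefSeq, GRCm38.p6) are printed with the seed, bases 2 to 8, in capitals, because the precursors have count rows of their own.
miR-335-5p: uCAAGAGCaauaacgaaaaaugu
miR-335-3p: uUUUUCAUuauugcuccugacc
miR-675-5p: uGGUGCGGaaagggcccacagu
miR-675-3p: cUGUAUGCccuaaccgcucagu

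These 4 arms have 4 different seeds. Mir335 received 3 counts in the 12 pooled libraries and 9 counts in the 35 single-nerve libraries, and Mir675, Mir483 and Mir770 received 0 counts in all of them. Smart-seq2 libraries, made from polyadenylated RNA, do not capture mature microRNAs, so these counts say nothing of their level.

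Pooled libraries held 11435463 to 22617054 counts on genes and single-nerve libraries 9240883 to 22426128. Levels are CPM, a gene's reads scaled so that the adjusted library size (TMM method) is the same for all libraries, and per-kilobase levels divide CPM by exon length. All 9 SC markers examined were detected, although Gfra3 stood at 0 in 14 libraries and Erbb3 at 0 in distal day 1 replicate 1. Some single-nerve libraries stood apart. The distal and bridge libraries of day 4 replicate 1 came from 1 animal and were much more alike than any other pair (chi-square per degree of freedom 3.96, against 47.9 for the next of 595 pairs). The difference in mean log2 level between genes higher and genes lower in pooled bSCs than in pooled dSCs, with the members left out, was 3.53 in distal day 10 replicate 0, within the 2.93 to 4.58 of the other bridge libraries outside the day 4 pair, and 1.11 in bridge day 8 replicate 2, within the 1.095 to 2.18 of the other distal libraries of days 4 to 10. In the day 4 pair it was 1.73 in both. In intact replicates 0 and 1, distal day 2 replicate 0 and distal day 1 replicate 1, the 10 most abundant genes held 39.8%, 41.9%, 42.4% and 23.5% of counts. The 4 libraries of day 4 replicate 1, distal day 10 replicate 0 and bridge day 8 replicate 2 are drawn hollow in the plots, and results that rest on them are given with and without them. Leaving out libraries because they resemble the other region widens the bridge to distal difference by construction.

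Mest encodes a protein of the alpha/beta hydrolase fold and is expressed from the paternal chromosome in embryonic mesoderm. It lies on chr6:30673547-30698457 of NCBIM37 (mm9), plus strand, with 3937 exon bases. In pooled iSCs Mest stood at 46.6, 19.4, 84.5 and 128 CPM. In pooled dSCs the Mest level was 106, 92.2, 370.3 and 176 CPM. In pooled bSCs it was 2561, 747, 519.8 and 1424 CPM. The 4 bridge values, which chose the gene, all lay above the highest distal and the highest intact value, while the distal and intact ranges overlapped. The means ± SD were 69.5 ± 47.0 CPM in iSCs, 186 ± 128 CPM in dSCs and 1313 ± 917 CPM in bSCs (n = 4 each), so that Mest was 7.06-fold higher in bSCs than in dSCs and 18.9-fold higher in bSCs than in iSCs in the fitted model. In dSCs against iSCs the log2 fold change of Mest was 1.42 (SE 0.63) and did not pass the test (edgeR adjusted p = 0.268). The choice did not use this contrast, but its libraries are those that the bridge was set against.

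In single nerves, Mest in iSCs was 86.2, 228, 65.1, 75.0 and 45.0 CPM. On day 1 the distal stump held 57.0, 100.1 and 59.5 CPM, and on day 2 it held 4.05, 86.5 and 74.0 CPM. Up to day 2 the distal levels of Mest thus lay within or below the intact range. The value of 4.05 CPM came from distal day 2 replicate 0 and the highest intact value, 228 CPM, from intact replicate 1. In both of these libraries few genes held the counts. On day 4 Mest in dSCs was 309.9, 119 and 189 CPM, and on day 6 it was 148, 257 and 602 CPM. On day 8 the distal values were 588, 173 and 605 CPM, and on day 10 they were 3585, 472 and 129 CPM. From day 4 on, 7 of the 12 distal libraries lay above the highest intact library, intact replicate 1. Without that library the highest intact value was 86.2 CPM and 12 of 12 lay above it. The day 10 library at 3585 CPM, distal replicate 0, is the one whose other genes resembled bridge libraries.

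In the bridge Mest was 195, 125 and 306 CPM on day 4, inside or near the range of the distal stump of that day. On day 6 the bridge values were 3024, 1838 and 1772 CPM, all above the highest distal value of that day. On day 8 they were 2955, 3058 and 327 CPM, and the lowest of these is the bridge library whose other genes resembled distal libraries. On day 10 they were 916, 808 and 1481 CPM. Over days 4 to 10, 10 of the 12 bridge libraries lay above the highest intact library (12 of 12 without intact replicate 1), and the median was 1199 CPM in bSCs against 284 CPM in dSCs. The plot of Mest by library shows each of these values.

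**Figure D1:**
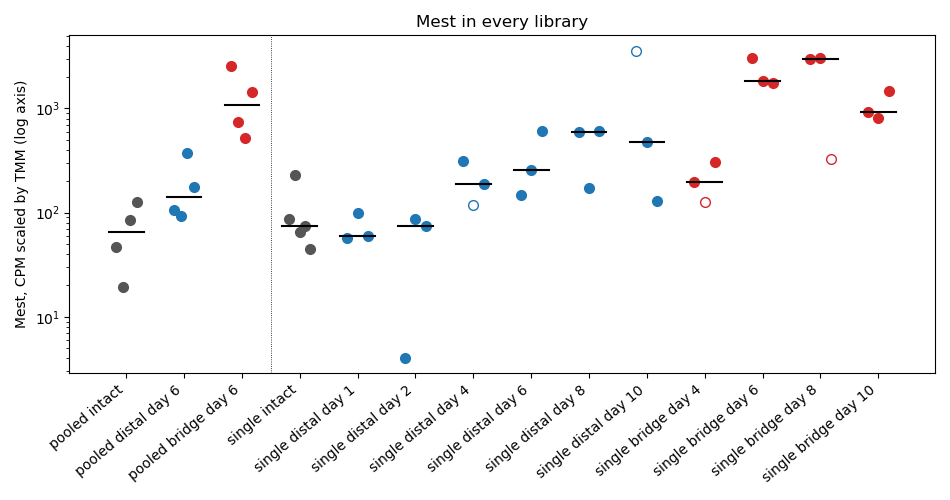
Level of Mest in every mouse library, in CPM on a log axis, by group, with the pooled and the single-nerve experiment side by side. Each point is a library, the black bar is the group median and hollow points are the 4 libraries that stood apart. The pooled bridge libraries, at 519.8 to 2561 CPM, lie above all other pooled libraries, and in single nerves the bridge of day 6, at 1772 to 3024 CPM, lies above the distal stump of day 6.

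Against intact nerve, Mest rose in the single-nerve dSCs by a log2 fold change of 2.20 (SE 0.65) over the mean of days 4 to 10 (edgeR adjusted p = 0.0420). That call was fragile: it held in 6 of 17 fits that each left out 1 library, with a log2 fold change between 1.72 and 2.82. Without the distal day 10 replicate 0 the adjusted p was 0.0786, and the losses also came on leaving out intact replicate 0, 3, 4 or 5, distal day 4 replicate 0 or 2, day 6 replicate 1 or 3, or day 8 replicate 0 or 2 (adjusted p 0.0510 to 0.0939). Without the 4 libraries that stood apart it was 1.76 (SE 0.52, adjusted p = 0.0637). In a test of a difference between any distal day and intact nerve, Mest passed (adjusted p = 0.0121), but not without the distal day 10 replicate 0 (adjusted p = 0.127). In bSCs of single nerves Mest rose against the same intact libraries by a log2 fold change of 3.34 (SE 0.70, edgeR adjusted p = 0.00335), and this call held in 17 of 17 fits that each left out 1 library.

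The bridge was then set against the distal stump in single nerves, where 10 animals gave both regions by every label. By the animal identifier alone there would be 11, but the bridge library of the eleventh, day 10 replicate 0, has a title that points to another animal, and this pair was left out of the pairs used. In it Mest went from 3585 CPM in the distal stump to 916 CPM in the bridge. Averaged over days 4 to 10, Mest was higher in bSCs by a log2 difference of 1.14 (SE 0.44) and did not pass with all libraries and no pairing (edgeR adjusted p = 0.357). With the animal as a block the difference was 2.08 (SE 0.47) and passed (adjusted p = 0.0450). That call rests on leaving the eleventh pair out: with 11 animals the blocked difference was 1.39 (SE 0.57) and did not pass (adjusted p = 0.345). Without the 4 libraries that stood apart it was 1.78 (SE 0.41, adjusted p = 0.0270). The pairing rests on the animal identifiers of the labels. For Mest alone the mean of the 10 paired differences in log2(CPM + 0.5) was 1.79 (SD 1.94), a 3.47-fold difference, with Mest higher in the bridge of 8 of 10 animals (exact sign-flip permutation test, two-sided p = 0.0215, against a smallest possible p of 0.00195). Leaving out 1 animal at a time gave a mean of 1.51 to 2.09 and an exact p of 0.0117 to 0.0430. With the eleventh animal added the mean was 1.45 (SD 2.16), Mest was higher in the bridge of 8 of 11 animals and the exact p was 0.0518. The animals were not alike in this.

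On day 4 Mest went from 309.9 CPM in the distal stump to 195 CPM in the bridge in replicate 0, from 119 to 125 CPM in replicate 1, whose libraries nearly coincide, and from 189 to 306 CPM in replicate 2. On day 6 it went from 148 to 3024 CPM, from 257 to 1838 CPM and from 602 to 1772 CPM. On day 8 it went from 588 to 2955 CPM, from 173 to 3058 CPM and from 605 to 327 CPM. The single pair of day 10 went from 129 to 1481 CPM. The differences by day were 0.02 on day 4, 2.72 on day 6, 2.21 on day 8 and -0.39 on day 10 as log2 fold changes over all libraries, and none of the 4 passed edgeR's test. The sign on day 10 rested on distal replicate 0: without the 4 libraries that stood apart the day 10 value was 1.75 (SE 0.85, adjusted p = 0.796), and with the animal as a block, where day 10 rests on 1 pair, it was 3.39 (SE 1.28, adjusted p = 0.298). With the eleventh animal in the block it was 0.66 (SE 1.57, adjusted p = 0.949). Whether the difference changed with day was tested for all genes at once, and Mest did not pass (edgeR unadjusted p = 0.0448).

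**Figure D2:**
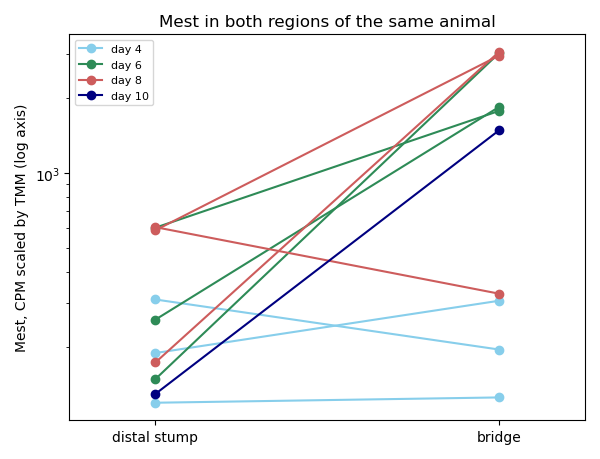
Mest in the distal stump and in the bridge of the same animal, in CPM on a log axis, for the 10 animals with both regions by every label, 1 line per animal and days after transection marked. The line rises toward the bridge in 8 of 10 animals, and in all 3 animals of day 6.

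The gene most like Mest in level overlaps it. Copg2, a coat protein subunit gene, lies on the opposite strand and overlaps the last 904 bases of Mest (chr6:30697554-30698457, NCBIM37). The libraries do not mark strand, so reads from that stretch cannot be told apart by gene. The counting set reads aside as ambiguous, 77703 to 241525 per library. Whether reads of this stretch are among those is not given in the sources used here. The part of such reads in either gene's count was not tested. Among 15509 genes, the level of Copg2 had the highest correlation with that of Mest over the 35 single-nerve libraries (Pearson r = 0.979 on log2 CPM) and r was 0.946 over the 12 pooled libraries. In pooled bSCs Copg2 was 1060.0, 388, 256 and 635 CPM, against 92.9, 72.3, 168 and 120.3 CPM in pooled dSCs. Its ranges did not overlap between these regions, as for Mest. The next genes by likeness were Cd276 (r = 0.831 over 35 libraries, 0.898 over 12), an immune checkpoint ligand, and Edil3 (0.795 and 0.789), a secreted integrin ligand. Usp22 (0.781) and Ptn (0.779), which encodes the growth factor pleiotrophin, came after them in single nerves, but over the pooled libraries their r was 0.058 and 0.464. These correlations describe libraries that share regions, days and depth.

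Igf2 and H19 lie next to each other on chromosome 7 and share enhancers. H19 (chr7:149761434-149764048, minus strand, 2372 exon bases) was higher in cut than in intact nerve in each of the contrasts tested from day 4 on. In pooled iSCs H19 stood at 32.5, 9.04, 50.9 and 43.7 CPM. In pooled dSCs it was 436, 287, 185 and 299 CPM, and in pooled bSCs it was 428, 281, 148 and 200.2 CPM. All dSC and all bSC values lay above all iSC values, while the dSC and bSC ranges overlapped almost entirely. H19 rose in pooled dSCs by a log2 fold change of 3.15 (SE 0.50, edgeR adjusted p = 0.00306), and this held in 8 of 8 fits without 1 library. In pooled bSCs it was 7.77-fold above iSCs.

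The single nerves gave the time course of H19. In iSCs it was 44.4, 16.5, 47.1, 44.5 and 25.8 CPM. On day 1 dSCs held 24.6, 48.5 and 65.6 CPM and on day 2 they held 9.45, 47.7 and 59.9 CPM. These first 2 days overlapped with intact nerve. On day 4 H19 in dSCs was 429, 864 and 681 CPM, and on day 6 it was 429, 341 and 397 CPM. On day 8 it was 299, 127 and 320.4 CPM, and on day 10 it was 168, 167 and 349 CPM. Every one of the 12 dSC libraries of days 4 to 10 lay above the highest iSC library, and the day 4 values were above those of days 8 and 10. In bSCs H19 was 258, 913 and 1119 CPM on day 4 and 477, 243 and 118 CPM on day 6. On day 8 it was 179, 400.0 and 476 CPM and on day 10 it was 96.8, 139.8 and 293 CPM. All 12 bSC libraries also lay above the highest iSC library.

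Over days 4 to 10 H19 rose against intact nerve by a log2 fold change of 3.28 in dSCs (SE 0.49, edgeR adjusted p = 0.000122) and of 3.25 in bSCs (SE 0.49, adjusted p = 9.7e-05). It also passed the test of any distal day against intact nerve (adjusted p = 9.4e-05), and each of these calls held in every fit that left out 1 library. Both contrasts use the same iSC libraries. Between bSCs and dSCs the log2 difference of H19 was -0.03 (SE 0.31), with an interval of 2 SE either side from -0.65 to 0.58, and H19 was higher in the bridge of 5 of 10 animals.

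Igf2 (chr7:149836673-149852721, minus strand, 5493 exon bases) was much lower than H19 per kilobase, with medians of 2.53, 13.6 and 9.29 CPM per kb in pooled iSCs, dSCs and bSCs against 16.1, 124 and 101 CPM per kb for H19. In pooled iSCs it was 7.71, 5.13, 20.1 and 30.4 CPM. In pooled dSCs Igf2 was 85.4, 59.4, 81.7 and 67.9 CPM, and in pooled bSCs it was 73.6, 28.5, 116 and 10.8 CPM. The 4 dSC values lay above all iSC values, and the bSC values spread over both. The log2 fold change in dSCs against iSCs was 2.22 (SE 0.68), which did not pass with all libraries (edgeR adjusted p = 0.0851) and passed without intact replicate 5 (2.77, adjusted p = 0.0413). In single nerves Igf2 ranged from 7.81 to 61.0 CPM in iSCs, from 19.6 to 122 CPM with a median of 51.9 CPM in dSCs of days 4 to 10, and from 10.8 to 143 CPM with a median of 67.1 CPM in bSCs. The difference of dSCs from iSCs there was 0.91 (SE 0.52, adjusted p = 0.343). Igf2os, a noncoding transcript that overlaps Igf2 on the opposite strand, received 4 counts in all pooled libraries together and 136 counts in all single-nerve libraries.

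**Figure D3:**
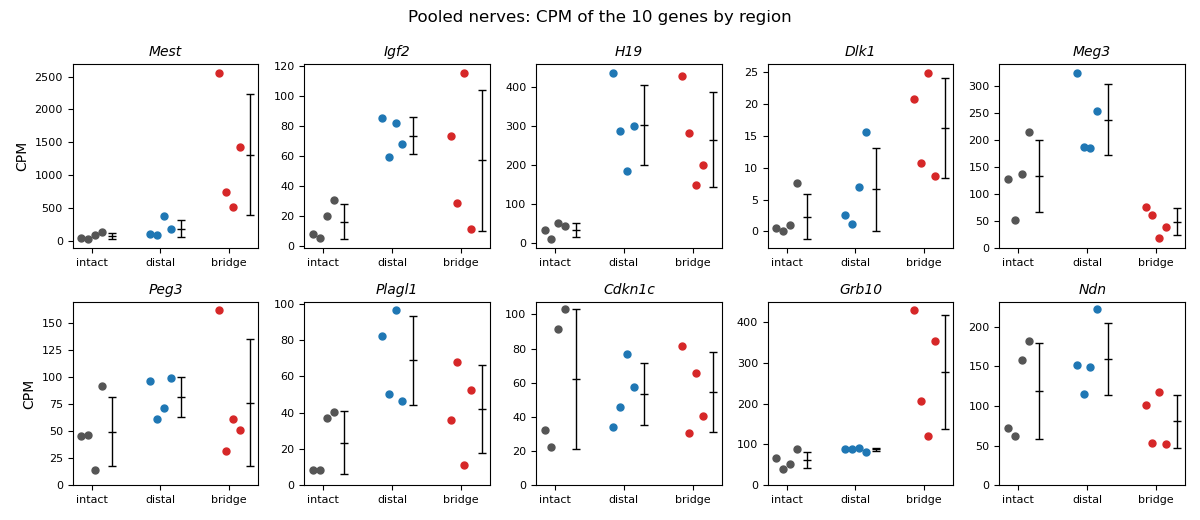
Level of each of the 10 genes in the 12 pooled libraries, in CPM on a linear axis of its own for each gene, by nerve region. Points are libraries and bars show the mean ± SD of 4. H19 is at 9.04 to 50.9 CPM in iSCs and at 148 to 436 CPM in both injured regions, Mest and Grb10 are highest in bSCs, and Meg3 is lowest there.

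Dlk1 and Meg3 lie next to each other on chromosome 12 and are expressed from opposite parental chromosomes. They moved differently in the pooled libraries. Dlk1 (chr12:110691033-110701546, plus strand, 5657 exon bases) was low everywhere, with pooled medians of 0.135, 0.843 and 2.78 CPM per kb in iSCs, dSCs and bSCs. It stood at 0.545, 0.0508, 0.983 and 7.57 CPM in pooled iSCs and at 2.60, 1.21, 6.93 and 15.6 CPM in pooled dSCs. In pooled bSCs Dlk1 was 20.7, 10.7, 24.9 and 8.62 CPM, all above iSCs but overlapping with dSCs. In dSCs against iSCs the log2 fold change was 1.53 and did not pass (edgeR adjusted p = 0.669).

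In single nerves Dlk1 was 0, 1.43, 0.792, 2.75 and 1.27 CPM in iSCs. In dSCs it stayed between 0 and 1.48 CPM on days 1 and 2, and from day 4 on it ranged from 0.686 to 18.4 CPM with a median of 6.53 CPM. In bSCs it ranged from 1.67 CPM on day 10 to 122 CPM on day 4, with a median of 13.3 CPM. Above the highest iSC library lay 10 of 12 dSC and 10 of 12 bSC libraries. Dlk1 rose in bSCs against iSCs by a log2 fold change of 4.13 (SE 1.097, edgeR adjusted p = 0.0168), a call that held in 17 of 17 fits without 1 library, and its value in dSCs was 2.49 (adjusted p = 0.136). Against dSCs the bSC value was 1.65 (SE 0.67, adjusted p = 0.401), with Dlk1 higher in the bridge of 9 of 10 animals.

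Meg3, a long noncoding RNA expressed from the maternal chromosome (chr12:110779211-110809936, plus strand, 18089 exon bases), went the other way from Dlk1 in pooled bSCs. It was 127, 51.7, 136 and 216 CPM in pooled iSCs and 326, 188, 186 and 255 CPM in pooled dSCs. In pooled bSCs Meg3 was 75.7, 60.1, 18.1 and 38.2 CPM, below all dSC values, with a log2 fold change of -2.31 against dSCs. In dSCs against iSCs it was 0.85 (SE 0.45, edgeR adjusted p = 0.402). In single nerves Meg3 ranged from 28.2 to 248 CPM with a median of 197 CPM in dSCs of days 4 to 10, and from 30.1 to 206 CPM with a median of 69.2 CPM in bSCs. There the ranges overlapped, the log2 difference was -0.59 (SE 0.36, adjusted p = 0.718) with an interval of 2 SE from -1.31 to 0.12, and Meg3 was higher in the bridge of 3 of 10 animals. Rian, a noncoding RNA of the same cluster, had pooled medians of 6.64, 20.8 and 27.1 CPM in iSCs, dSCs and bSCs, an order unlike that of Meg3.

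Grb10 and Cdkn1c encode inhibitors of growth signalling and of the cell cycle. Grb10 (chr11:11830511-11938686, minus strand, 9164 exon bases) had a pooled pattern like that of Mest but smaller in size. It was 66.7, 41.0, 52.1 and 87.9 CPM in iSCs and 88.0, 89.7, 90.9 and 82.3 CPM in dSCs. In pooled bSCs Grb10 was 430.3, 207, 120.0 and 353 CPM. The bSC values lay above all others, 3.16-fold above dSCs and 4.48-fold above iSCs in the fit, and the dSC libraries were very even. In dSCs against iSCs the log2 fold change was 0.50 (SE 0.35, edgeR adjusted p = 0.586).

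In single nerves Grb10 was 95.0, 12.7, 161, 135 and 193 CPM in iSCs. In dSCs of days 4 to 10 it ranged from 117 to 526 CPM with a median of 166 CPM, and the highest was again distal day 10 replicate 0. In bSCs it was 364, 298 and 723 CPM on day 4 and 642, 778 and 426 CPM on day 6. On day 8 it was 467, 334 and 139.8 CPM, the last being the replicate 2 that resembled distal libraries, and on day 10 it was 261, 159 and 328 CPM. Grb10 rose in bSCs against iSCs by a log2 fold change of 1.69 (SE 0.44, edgeR adjusted p = 0.0142), which held in 17 of 17 fits without 1 library but not without the libraries in which few genes held the counts (1.27, adjusted p = 0.0537). Against dSCs it was 0.92 higher (SE 0.31, adjusted p = 0.230) with no pairing. With the animal as a block the difference was 1.18 (SE 0.25) and passed (adjusted p = 0.0365) with 10 animals but not with 11 (0.89, SE 0.26, adjusted p = 0.182), and without the 4 libraries that stood apart it was 1.30 (SE 0.32, adjusted p = 0.0392). Grb10 was higher in the bridge of 9 of 10 animals, by a mean of 1.19 on the log2 scale (SD 0.824).

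Cdkn1c (chr7:150644255-150646955, minus strand, 1931 exon bases) was even across the pooled regions, with medians of 32.0, 26.7 and 27.6 CPM per kb in iSCs, dSCs and bSCs. Its pooled levels ranged from 22.2 to 103 CPM in iSCs, from 34.2 to 76.9 CPM in dSCs and from 30.3 to 81.3 CPM in bSCs. The log2 fold change of dSCs against iSCs was -0.22 (SE 0.50, edgeR adjusted p = 0.919). In single nerves the iSC values were 1.26, 67.4, 58.5, 63.4 and 56.8 CPM. In dSCs Cdkn1c had a median of 15.1 CPM on days 1 and 2 and of 40.4 CPM on days 4 to 10, and in bSCs the median was 65.8 CPM. It was higher in the bridge of 9 of 10 animals, by a mean of 1.06 on the log2 scale (SD 0.814), while the fit over all libraries gave 0.85 (SE 0.44, adjusted p = 0.604). Kcnq1ot1, the noncoding RNA of the same imprinted domain, had pooled medians of 41.3, 68.2 and 12.9 CPM in iSCs, dSCs and bSCs.

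Peg3, Plagl1 and Ndn encode nuclear proteins that act on transcription, all expressed from the paternal chromosome. Plagl1, a zinc finger factor (chr10:12810497-12851500, plus strand, 7289 exon bases), was 8.57, 8.38, 36.8 and 40.1 CPM in pooled iSCs and 82.1, 50.4, 96.5 and 46.3 CPM in pooled dSCs. Its pooled bSC values were 36.0, 68.0, 11.2 and 52.4 CPM. Although all dSC values lay above all iSC values, the log2 fold change of 1.55 (SE 0.62) did not pass (edgeR adjusted p = 0.209). In single nerves Plagl1 ranged from 0.359 to 22.3 CPM in iSCs, from 9.88 to 166 CPM in dSCs of days 4 to 10 and from 0.0866 to 237 CPM in bSCs. Above the highest iSC library lay 10 of 12 dSC and 11 of 12 bSC libraries, with log2 fold changes of 2.38 (adjusted p = 0.155) and 3.05 (adjusted p = 0.0566). The second passed without bridge day 10 replicate 0 (3.16, adjusted p = 0.0360).

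Peg3, a large zinc finger protein (chr7:6656603-6683132, minus strand, 13314 exon bases), ranged from 14.1 to 91.8 CPM in pooled iSCs, from 60.9 to 99.2 CPM in dSCs and from 31.5 to 162 CPM in bSCs. In single nerves it ranged from 0.139 to 51.3 CPM in iSCs, from 50.2 to 229 CPM in dSCs of days 4 to 10 and from 7.68 to 219.9 CPM in bSCs. Its log2 fold change in single-nerve dSCs against iSCs was 1.83 (SE 0.62, edgeR adjusted p = 0.0743), with 11 of 12 dSC libraries above the highest iSC library. On day 10 the bSC values of Peg3, 15.7, 55.7 and 7.68 CPM, lay below the dSC values of 169, 56.6 and 85.6 CPM.

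Ndn, which encodes necdin, a protein that binds E2F factors (chr7:69493163-69494814, plus strand, 1652 exon bases), had the highest per-kilobase level of the members in pooled iSCs, with a median of 69.7 CPM per kb. Pooled levels ranged from 61.9 to 182 CPM in iSCs, from 115 to 222 CPM in dSCs and from 51.6 to 117 CPM in bSCs. In single nerves Ndn was 245, 241, 155, 97.5 and 148 CPM in iSCs, and had a median of 137 CPM in dSCs of days 4 to 10 and of 107 CPM in bSCs. In bSCs of single nerves Ndn fell against iSCs, by a log2 fold change of -0.79 (SE 0.26, edgeR adjusted p = 0.0473), and this call held in 5 of 17 fits without 1 library. It was lost without intact replicate 0, 1, 3 or 5, or without bridge day 4 replicate 0 or 1, day 6 replicate 1 or 3, day 8 replicate 0 or 1, or day 10 replicate 2 or 3 (adjusted p 0.0541 to 0.155), and it was -0.36 (adjusted p = 0.463) without the libraries in which few genes held the counts. In dSCs against iSCs it was -0.36 (SE 0.26, adjusted p = 0.479). The plot of single-nerve levels by day shows all members.

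**Figure D4:**
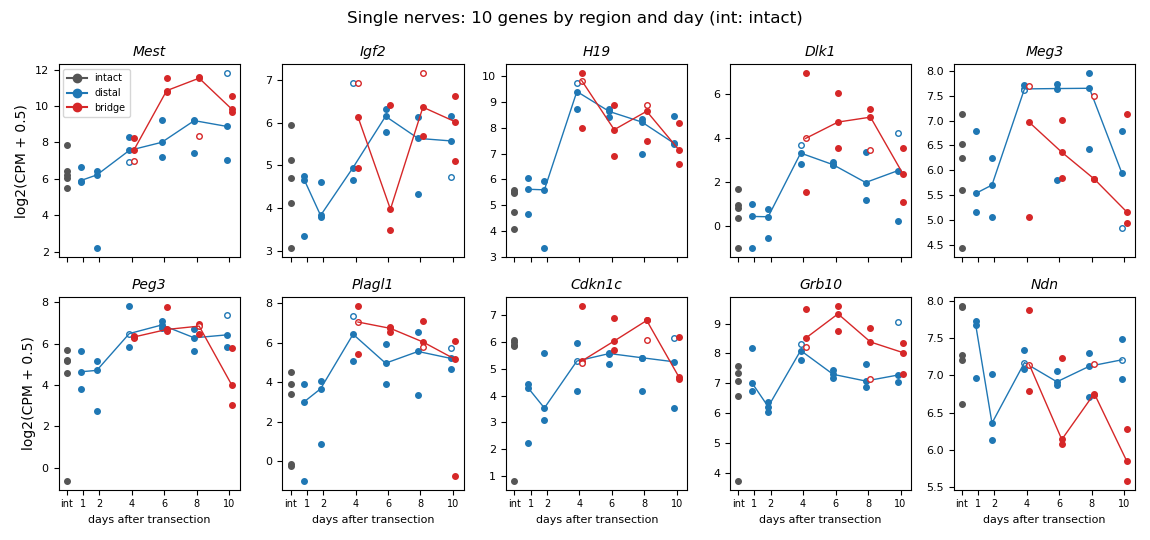
Level of each of the 10 genes in single nerves, as log2(CPM + 0.5), against days after transection, with intact nerve at the left. Points are libraries, lines join the medians of days within a region and hollow points are the 4 libraries that stood apart. H19 leaves the intact range by day 4 in both regions, and Mest in the bridge does so by day 6.

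Over the 10 genes, 1 was called in pooled dSCs against iSCs (H19), where 5.32% of 13751 genes were called by edgeR at an adjusted p under 0.05. The median log2 fold change of the 10 was 1.13, beside -0.02 for all genes. In the contrasts that chose the genes, 3 of 10 were called for pooled bSCs against dSCs (background 5.43%) and 4 of 10 for pooled bSCs against iSCs (background 14.7%), and nothing is read from these counts. With the replicate number as a block the first of them was 1 of 10, beside 1.72%. In single nerves over days 4 to 10, 2 of 10 were called in dSCs against iSCs (Mest and H19) beside 5.32% of 15519 genes, with a median of 1.37 beside -0.08. There, 5 of 10 were called in bSCs against iSCs (Mest, H19, Dlk1 and Grb10 higher, Ndn lower) beside 9.34%, with a median of 1.52 beside -0.15. All contrasts against iSCs within an experiment share the same iSC libraries.

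Between bSCs and dSCs of single nerves 0 of 10 were called without the block, beside 0.103% of all genes (edgeR, 16 genes, all lower in bSCs). At an unadjusted p under 0.05 there were 4 members and 1398 genes, and DESeq2 called 583 genes. With the animal as a block 2 of 10 were called, Mest and Grb10, beside 1.46% of 16190 genes. With the eleventh animal in the block 0 of 10 were called, beside 0.449% of 15371 genes. For any distal day against iSCs 2 of 10 were called beside 0.767%. For distal day 1 and day 2 alone, 0 of 10 were called, beside 0.18% and 0.445%, with 1 member each at an unadjusted p under 0.05, and DESeq2 called 334 and 475 genes. For the regions on day 4, 6, 8 and 10 taken alone, 0 of 10 were called, beside 0%, 0.00644%, 0% and 0.0129%, with 0, 2, 1 and 2 members at an unadjusted p under 0.05. DESeq2 called 200, 396, 156 and 483 genes on those days, among them Mest and Grb10 on day 6 and Ndn on day 10. For the change of the region difference with day 0 of 10 were called, beside 0%, with 488 genes at an unadjusted p under 0.05 and 6 called by DESeq2.

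**Figure D5:**
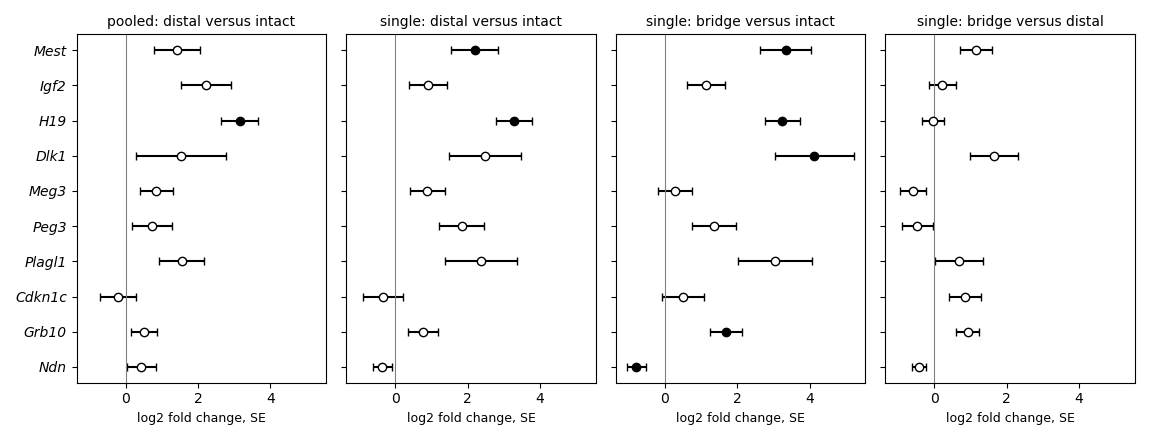
Log2 fold change of each of the 10 genes, with bars of 1 SE, in 4 contrasts other than those of the pooled bridge. The contrasts are 1 of pooled and 3 of single nerves over days 4 to 10. Filled points passed an adjusted p of 0.05 in edgeR over all genes. H19 is at 3.15 in pooled dSCs and at 3.28 in single-nerve dSCs against intact nerve, and at -0.03 between bridge and distal stump.

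The members were not one block in their variation. Over the 35 single-nerve libraries the highest correlations of log2 CPM were between H19 and Plagl1 (r = 0.757), Dlk1 and Cdkn1c (0.718), Peg3 and Plagl1 (0.704) and Mest and Dlk1 (0.701), and the lowest was between Mest and Ndn (-0.319). Between the neighbours Igf2 and H19 r was 0.519 there and 0.759 over the 12 pooled libraries, and between Dlk1 and Meg3 it was 0.286 and -0.245.

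Beside these results, levels of other cell type markers also moved. The sum of 9 macrophage markers was 196 to 5268 CPM in pooled iSCs, 9524 to 15502 CPM in dSCs and 2287 to 7047 CPM in bSCs. In single nerves it was 249 to 1150 CPM in iSCs, 2320 to 12971 CPM in dSCs of days 4 to 10 and 866 to 12660 CPM in bSCs. The sum of fibroblast markers was 7936 to 19173, 15327 to 31872 and 11405 to 44413 CPM in those 3 single-nerve groups, and 5306 to 33325, 21536 to 30024 and 12649 to 25038 CPM in the pooled ones. On day 6 the fibroblast sum was 33252 to 41383 CPM in bSCs, above the 17408 to 25591 CPM in dSCs. On day 10 it was 11405 to 16905 CPM in bSCs, below the 22047 to 31872 CPM in dSCs. On days 4 and 8 the ranges overlapped. Of the 12 fibroblast markers, 0 were called between these regions on day 6 (beside 0.00644% of all genes) or on day 10 (0.0129%). In pooled bSCs against dSCs 0 rose and 3 fell (beside 5.43%). In single-nerve bSCs against iSCs 1 rose and 2 fell (beside 9.34%). The sum of SC markers was 5058 to 11997 CPM in pooled iSCs, 1398 to 3327 CPM in dSCs and 1419 to 2879 CPM in bSCs, and proliferation markers summed to 8.74 to 30.8, 190 to 380 and 501 to 1067 CPM. In single nerves the SC sum was 1246 to 5317 CPM in iSCs, 1113 to 3148 CPM in dSCs of days 4 to 10 and 185 to 3572 CPM in bSCs. It was 526 CPM in bridge day 6 replicate 0 and 564 CPM in bridge day 8 replicate 1, where Mest was 3024 and 3058 CPM. Bridge day 4 replicate 2 had 185 CPM with Mest at 306 CPM, and bridge day 6 replicate 3 had 3572 CPM with Mest at 1772 CPM. In the single-nerve bridge the median proliferation sum was 653, 735, 383 and 700 CPM on days 4, 6, 8 and 10. The median of Mest in the bridge on those days was 195, 1838, 2955 and 916 CPM. The macrophage sum was highest in pooled dSCs. Perineurial markers summed to 845 to 1124 CPM in pooled iSCs, 210.3 to 719 CPM in dSCs and 189.6 to 425 CPM in bSCs. In single nerves they summed to 904 to 2416 CPM in iSCs, 163 to 904 CPM in dSCs of days 4 to 10 and 142 to 618 CPM in bSCs. Endothelial markers summed to 145 to 514 CPM in pooled iSCs, 147 to 413 CPM in dSCs and 105 to 936 CPM in bSCs. In the same single-nerve groups their sum was 667 to 4228, 349.9 to 2178 and 291 to 3460.2 CPM. In bridge day 8 it was 2214, 3460.2 and 345 CPM in replicates 0, 1 and 2, where Mest was 2955, 3058 and 327 CPM. In bridge day 6 it was 578, 858 and 2545 CPM in replicates 0, 1 and 3, where Mest was 3024, 1838 and 1772 CPM. Mural cell markers summed to 244 to 1583, 130.4 to 203 and 124 to 643 CPM in pooled iSCs, dSCs and bSCs, and to 800.1 to 4572, 493 to 2508 and 504 to 2312 CPM in those single-nerve groups. The part of any of these in the levels of the imprinted genes was not tested, and in bulk libraries fewer cells of a type and less RNA per cell cannot be told apart.

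Other imprinted genes were read for comparison. Of 51 listed, 33 were tested in the pooled libraries and 41 in single nerves. In pooled dSCs against iSCs 1 rose and 3 fell, where 5.32% of all genes were called in either direction. The median log2 fold change was 0.10 beside -0.02 for all genes. Igf2r, the receptor that takes IGF2 to lysosomes, rose from 28.9 to 62.3 CPM in iSCs to 73.3 to 116 CPM in dSCs (1.11, edgeR adjusted p = 0.0426). Osbpl5, a lipid transfer protein, fell by 3.02 on the log2 scale (adjusted p = 0.00574), Peg13 fell by 1.85 (adjusted p = 0.0217) and Sgce, a sarcoglycan, fell by 1.23 (adjusted p = 0.0367). In single-nerve dSCs 2 rose and 1 fell, beside 5.32% of all genes. Tfpi2, a protease inhibitor, rose by a log2 fold change of 2.86 (adjusted p = 0.0312) and Copg2, which overlaps Mest, rose by 1.89 (adjusted p = 0.0288). Slc22a3, an organic cation transporter that fell, was at 0, 28.2, 74.5, 47.5 and 45.4 CPM in iSCs and at 0 to 18.9 CPM in dSCs of days 4 to 10. In bSCs against dSCs 0 rose and 1 fell, Dcn, which encodes the matrix proteoglycan decorin (-1.16, adjusted p = 0.0233), beside 0.103% of all genes. In bSCs against iSCs 3 rose and 4 fell, beside 9.34% of all genes.

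The IGF and insulin axis, through which Igf2, Igf2r and Grb10 act, was listed with 21 genes. In pooled dSCs against iSCs 4 of 18 tested rose and 0 fell, where 5.32% of all genes were called in either direction. Igfbp3, an IGF binding protein, went from 10.5 to 30.2 CPM in iSCs to 60.9 to 169 CPM in dSCs (log2 fold change 2.78, edgeR adjusted p = 0.00199). Igf1, the growth factor related to Igf2, went from 44.7 to 333 CPM to 639 to 1054 CPM (2.39, adjusted p = 0.0280). Stc2, a secreted inhibitor of the proteases that free IGF, received 0 counts in each pooled iSC library and 23, 255, 148 and 147 counts in the dSC libraries, and Igf2r was the fourth gene to rise. The median over the list was 0.75, beside -0.02 for all genes. In single-nerve dSCs, where 5.32% of all genes were called, 2 of 20 rose, Igf1 (1.88, adjusted p = 0.000202) and the binding protein Igfbp4 (0.86, adjusted p = 0.0418), and 3 fell. Among those, Igfbp6, which prefers IGF2, fell by 2.18 on the log2 scale (adjusted p = 0.000875). Igf2bp1 was at 0 in all 12 dSC libraries of days 4 to 10 and in 3 of 5 iSC libraries, and Stc1 was at 0 in 2 of 5 iSC libraries. In bSCs against iSCs 3 rose and 3 fell, beside 9.34% of all genes.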

How the data were processed

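Members and gene lists were chosen with earlier results of these data known. The sources used were the deposited counts: whole-number read counts per gene, which the authors made, per the submitters' processing notes, with TopHat2 2.0.11 and HTSeq on mouse build mm9 (NCBIM37). Libraries were Smart-seq2 with spike-in RNA. Lanes of a library were summed (8 pooled libraries had 2 lanes, 4 had 1), and 6 rat culture libraries were not used. Reads on genes were 39.1% to 47.1% of reads on genes, spike-ins, no feature or ambiguous features, and only the first entered library sizes. With R 4.3.3, edgeR 4.0.16 fitted a quasi-likelihood model with TMM factors per experiment to genes passing its expression filter, with Benjamini-Hochberg adjustment over all genes tested. The script was checked on simulated data. P-values measure the spread between libraries within groups, which came from different pools or animals. Across regions, some libraries came from the same animal or carry the same replicate number. A design without the pairing was used for the results, with the animal or replicate number as a block as the alternative. Other alternatives were DESeq2 1.42.0, its size factors, no filter or the filter of at least 100 counts in 85% of libraries, only the groups compared, and a lane covariate. Leaving out libraries that stood apart was chosen after seeing the data.

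For pairing, animal identifiers in the labels were used. Deviations from group means had a median correlation of 0.0839 between regions of the same animal (-0.0986 to 0.679, n = 10) and of -0.0715 between different animals (n = 18) in single nerves. Same-numbered pooled libraries had a median of -0.00201. In single nerves the highest value, 0.679, was that of the nearly coinciding day 4 replicate 1 pair. Deviations cancel within a group, so the values between different animals are not an independent baseline. These correlations therefore do not decide whether the labelled pairing is right. The title and the animal identifier of bridge day 10 replicate 0 conflicted, so it was left out of the pairs, and pairs with it were added as an alternative after seeing the data. All 5 intact single nerves in the labels were used, 1 more than the study's methods count after filtering. Named genes were all 10 members, from each further list up to 3 largest rises and 3 largest falls past an adjusted p of 0.05 in the tested contrasts, the 5 genes most correlated with Mest, and transcripts hosted by or overlapping members. Intervals are 2 SE. Sequences came from RefSeq tables of GRCm38.p6 and gene positions and exon lengths from NCBIM37.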

Additional observations from a re-analysis of the deposited data

Results flagged for a closer look

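Among 40 groups of a member in 4 or 5 libraries, 3 held a library with a wide gap to the rest by Dixon's criterion, and chance marks about 1 group in 20. Mest in the single-nerve iSCs was 228 CPM in replicate 1 and 45.0 to 86.2 CPM in the others. Dlk1 in the pooled iSCs was 7.57 CPM in replicate 5 and 0.0508 to 0.983 CPM in the others. Cdkn1c in the single-nerve iSCs was 1.26 CPM in replicate 0 and 56.8 to 67.4 CPM in the others. Replicates 0 and 1 of the single-nerve iSCs are among the libraries in which few genes held the counts.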

How the results depend on the processing

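No direction of a called value reversed under any alternative that was run. The value of Mest between regions on day 10, which was not called, went from -0.39 to 1.75 without the 4 libraries that stood apart and to 3.39 with the animal as a block, which on day 10 holds 1 pair. The number of the 10 members called changed as follows. In pooled dSCs against iSCs it went from 1 to 2 with DESeq2 (1393 of 13607 genes called), with only the groups compared and with the lane covariate, as Igf2 joined H19. In single-nerve dSCs against iSCs it went from 2 to 5 with DESeq2, which called 1650 of 15356 genes (10.7%) where edgeR called 5.32%, and to 1 with only the groups compared or without the 4 libraries that stood apart. In single-nerve bSCs against iSCs it went from 5 to 3 with only the groups compared (beside 3.76%). It was also 3 without the libraries in which few genes held the counts (7.41%). There it went to 6 with DESeq2 (13.6%) and to 4 with the filter of at least 100 counts (10.4%). It was also 4 without the day 4 pair (7.21%) and without the 4 libraries that stood apart (7.48%). For any distal day it went from 2 to 1 without the 4 libraries and to 3 with DESeq2 (beside 4.59%). On day 6 DESeq2 called 2 (Mest and Grb10, beside 2.58%) and on day 10 it called 1 (Ndn, beside 3.15%). The causes of these changes were not tested.

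With the replicate number as a block, pooled bSCs against dSCs went from 3 to 1, and with the animal as a block single-nerve bSCs against dSCs went from 0 to 2 and day 10 from 0 to 1 (Peg3, resting on 1 pair, beside 1.41%). With the eleventh animal, whose labels conflict, in the block the count was 0 and that of day 10 was 1 (Peg3, beside 0.306%). The exclusion of the 4 libraries gave 2, beside 1.21%. Pooled bSCs against iSCs went from 4 to 3 with the block, and the block changed no other count of calls. That contrast also gave 3 with no filter (beside 10.5%) and with only the groups compared (13.7%), and 5 with DESeq2 (22.9%).

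Leaving out 1 library at a time gave 1 to 2 members called in pooled dSCs against iSCs, 1 to 3 in pooled bSCs against dSCs and 3 to 5 in pooled bSCs against iSCs. In single nerves it gave 1 to 2 in dSCs against iSCs, 4 to 6 in bSCs against iSCs and 1 to 2 for any distal day. It gave 0 to 0 in bSCs against dSCs, on each single day and for the change with day. The paired difference of Mest kept its side of the threshold when 2 in place of 0.5 was added to CPM (p = 0.0215, exact) and without TMM factors (1.70, exact p = 0.0293), and lost it with the eleventh animal (1.45, exact p = 0.0518). Members at few counts, Dlk1 above all, are limited by depth.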
